A study of Mus musculus with 4 samples.

Results

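The tumour necrosis factor (TNF) superfamily was followed here through 10 genes in mouse macrophages, 5 encoding ligands (Tnf, Tnfsf9, Tnfsf12, Tnfsf13b and Tnfsf15) and 5 encoding receptors (Tnfrsf1a, Tnfrsf1b, Tnfrsf9, Cd40 and Fas). They were taken by symbol from a table of 34745 Ensembl genes, and each had 1 row. RNA was sequenced from 2 libraries of C57BL/6 bone marrow-derived macrophages that received Acly-E14 siRNA and 2 that received control siRNA. Lipopolysaccharide (LPS), a bacterial ligand of a Toll-like receptor, was given to both groups, and no library without LPS was analysed here. A small interfering RNA (siRNA) directs the decay of a matching transcript, and Acly encodes ATP citrate lyase, which makes acetyl-CoA in the cytosol. The labels do not spell out E14, the LPS dose or the times, and no label says whether the pair of libraries in each group had separate mice or cultures as its source, so p-values measure a spread that may be technical.

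TNF family ligands are mostly trimers made as membrane proteins, and some, TNF among them, are also cut off and released. Their receptors either carry a death domain, which can lead to caspase activation, or bind TRAF adaptors, which lead to NF-kB and MAP kinase signalling. In macrophages, LPS strongly induces Tnf, and the level of its mRNA is also set by proteins that bind AU-rich elements in its 3′ untranslated region (UTR) and speed its decay.

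Sequences from the gene with the largest fall among the 10, Tnf, and from that with the largest rise, Tnfrsf9, show control elements of the kinds these genes are known for. The first is the 30-base window of the Tnf 3′ UTR (transcript Tnf-201, chr17:35199679-35199708, minus strand, mm10, from GENCODE M21) with the most copies of ATTTA, the core of an AU-rich element, here 5 copies, in capitals.
Tnf 3′ UTR: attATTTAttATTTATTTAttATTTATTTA
The whole 3′ UTR of Tnf spans 764 bases and held 8 copies of ATTTA and 5 of the longer form TTATTTATT, searched on the transcript strand, where copies may overlap. Of 20848 genes with a 3′ UTR of 30 bases or more, 0.27% had a 30-base window with at least 5 copies of ATTTA, 7.72% had the longer form and 0.2% had at least 5 copies of it, in UTRs of any length. Tnfsf13b had 6 ATTTA in 3631 bases and 1 copy of the longer form, Cd40 had 7 in 2035 bases, and Tnfrsf1a and Fas had none. Tnfsf9 had 2 in 253 bases, Tnfsf12 had 1 in 590, Tnfsf15 had 4 in 2505, Tnfrsf1b had 2 in 2324 and Tnfrsf9 had 2 in 1232.

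The 100 bases before the RefSeq start of Tnf (build GRCm38.p6, chr17:35202008-35202107, minus strand) hold a TATAAA box, in capitals, which begins 29 bases before the start.
Tnf promoter: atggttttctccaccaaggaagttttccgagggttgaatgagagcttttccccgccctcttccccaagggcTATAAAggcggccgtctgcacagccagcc
Tnfrsf9 has a pair of RefSeq starts in the table used. The 250 bases before the downstream one held 2 overlapping matches to the kB consensus, the site that NF-kB binds, shown in capitals in their 30-base setting (chr4:150927947-150927976, plus strand), and a match to the AP-1 site TGACTCA that begins 15 bases before the start.
Tnfrsf9 kB site: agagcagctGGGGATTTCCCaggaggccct
The 250 bases before each start were searched on both strands for 7 of the 10 genes that the RefSeq table lists, 9 promoters in all. The kB consensus was found in 1 of the 9 and in 3.9% of 32817 mouse promoters of that length, TGACTCA in 3 of 9 (Tnfrsf9, Fas and Tnfsf13b) and 4.46%, and TATAAA in 1 of 9 and 12.4%. A match describes letters in this window and was not tested for binding. Some windows hold exon bases of their own gene in GENCODE M21. These number 81 of 250 before the downstream Tnfrsf9 start and 166 in the Tnfsf13b window with TGACTCA. The windows of Tnfsf15 and Tnfrsf1a hold 54 and 36.

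Library totals lay between 21023197 and 21837806 counts. The targeted gene, Acly (chromosome 11, 100476353 to 100528000, minus strand), was at 118 and 127 CPM (counts relative to the library total, scaled here and throughout with trimmed-mean factors) in Acly-E14 siRNA libraries, against 158 and 154 in controls, a log2 fold change of -0.35 (edgeR adjusted p = 0.0086). Leaving out control library 1 ended that call (log2 -0.34). In alternative fits that kept all libraries, the adjusted p of Acly reached 0.0944. Its log2 fold change lay between -0.40 and -0.25 over all alternatives. All 10 macrophage markers examined were detected, with Lyz2 at 4602 CPM on average in Acly-E14 siRNA libraries and 4741 CPM in controls; 3 were higher, 4 lower and 3 not called in Acly-E14 siRNA libraries (1 to 4 higher and 1 to 4 lower with a library left out, both 1 without Acly-E14 siRNA library 2 or control library 1). Of 12 fibroblast and stroma markers, 10 were higher and the other two not called. Their summed level was 4890 to 6079 CPM in Acly-E14 siRNA libraries, against 2213 to 3172 CPM in controls, with no marker at 0. That sum was thus higher in the same libraries as every rise described below, and its part in those differences was not tested. The 7 T cell markers summed to 20.2 and 23.2 CPM in Acly-E14 siRNA libraries, against 18.5 and 21.3 CPM in controls, nearly all of it Lck (not called). Cd4 had at most 21 counts in a library, Cd3d, Cd3g and Trac at most 3, and Cd3e and Cd8a were at 0. NK cell markers summed to at most 0.183 CPM, and those of B cells to 2.52 and 5.12 CPM in Acly-E14 siRNA libraries, against 3.82 and 2.25 CPM in controls. Among 6 endothelial markers, Kdr and Cdh5 fell (log2 -1.45 and -0.45), and Cldn5 and Emcn were at 0. Pecam1 and Tek were too scarce to be tested. Pecam1 had 5 and 7 counts in Acly-E14 siRNA libraries, against 6 and 4 in controls, and Tek had 3 and 10 against 2 and 0. Of 3 neutrophil markers tested, Csf3r and S100a8 were higher (log2 0.53 and 0.70) and S100a9, at 3 and 1 counts in Acly-E14 siRNA libraries, against 27 and 24 in controls, was lower, while Ly6g, Mpo and Elane had at most 2 counts in a library. Ltf, also not tested, had 9 and 27 counts in Acly-E14 siRNA libraries, against 4 and 3 in controls. The neutrophil sum of 139.9 and 140.3 CPM, against 92.6 and 101.2 CPM, was mostly Csf3r. Of 4 osteoclast markers tested, Ctsk and Dcstamp were lower (log2 -1.44 and -1.17), Acp5 was higher (log2 0.60) and Nfatc1 was not called. Of those not tested, Ocstamp had 9 and 9 counts in Acly-E14 siRNA libraries, against 2 and 3 in controls. Oscar had 3 and 5 against 1 and 2, and Calcr 1 and 0 against 0 and 0. All 7 listed markers summed to 715 and 693 CPM in Acly-E14 siRNA libraries, against 1022 and 946 CPM in controls.

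All 10 TNF superfamily genes were tested. In Acly-E14 siRNA libraries 4 were lower (Tnf, Tnfrsf1b, Tnfsf12 and Tnfrsf1a), 3 were higher (Tnfrsf9, Tnfsf9 and Fas) and 3 were not called (Tnfsf13b, Tnfsf15 and Cd40), at an edgeR quasi-likelihood adjusted p under 0.05. Of all 13108 genes tested, 33.2% were called, 15.9% lower and 17.3% higher. Rises were 52.0% of all calls, and 65.8% with library totals in place of trimmed-mean factors. The median log2 fold change was -0.01 over the 10 genes and 0.0027 over all genes. The 4 falls held without any 1 library, while the count of rises ranged between 1 and 3, the lowest without Acly-E14 siRNA library 2. It was 5 with library totals alone. In such bulk samples, fewer cells of a type and less RNA per cell cannot be told apart. Where groups are said below not to overlap, the exact two-sided permutation p of 2 libraries against 2 is 0.333 at best. The share of all genes tested that separate in this way was not counted.

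**Figure D1:**
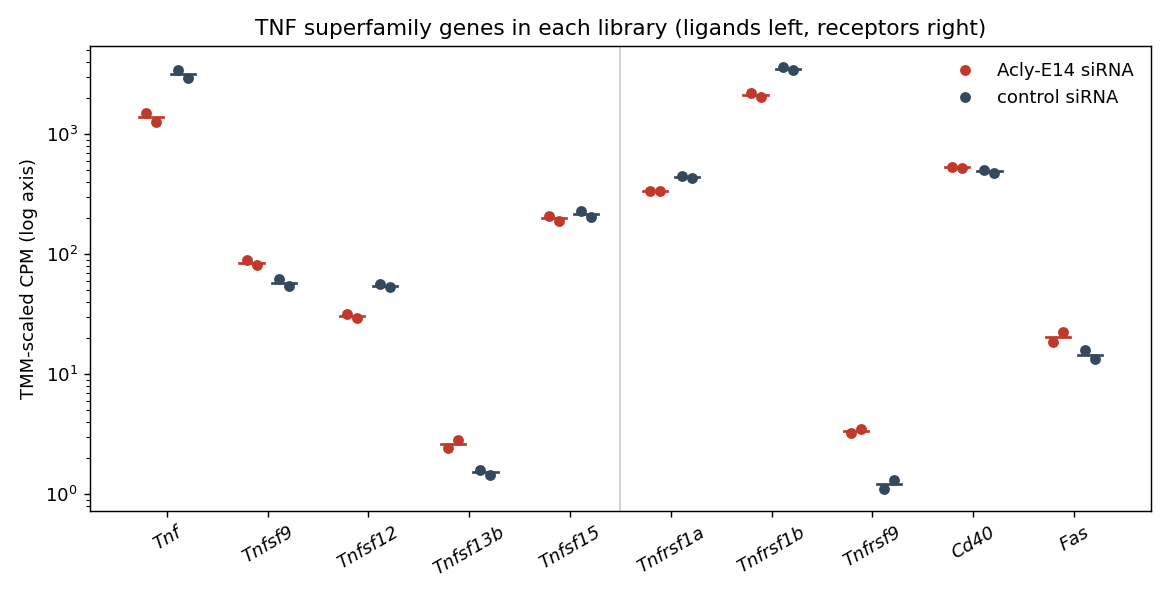
CPM on a log axis of the 10 genes in each library, with the group mean as a bar. Points of Tnf, Tnfsf12, Tnfrsf1a and Tnfrsf1b lie lower in Acly-E14 siRNA libraries and those of Tnfsf9, Tnfsf13b, Tnfrsf9, Cd40 and Fas higher, while Tnfsf15 overlaps. The share of all genes with such separation was not counted.

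Among the ligands, Tnf was by far the most abundant and fell the most. It had 1501 and 1270 CPM in Acly-E14 siRNA libraries, against 3452 and 2917 CPM in controls. Both treated libraries lay well below both controls, at 0.435 of the control level (log2 -1.20, SE 0.11, edgeR adjusted p = 0.00193). The fall made Tnf 81.9% and 80.7% of the summed CPM of the 5 ligands in Acly-E14 siRNA libraries, against 90.8% and 90.3% in controls. Tnf lies on chromosome 17 (35199381 to 35202007, minus strand). Under all alternatives its log2 fold change stayed between -1.32 and -1.08, with adjusted p between 1.83e-11 and 0.0216.

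Tnfsf12 encodes TWEAK, a ligand linked to tissue repair and cell death. It was at 31.9 and 29.3 CPM in Acly-E14 siRNA libraries, against 55.9 and 53.2 CPM in controls. The groups were far apart relative to their spread (log2 -0.83, SE 0.079, edgeR adjusted p = 0.00193). In the annotation, Tnfsf12 (chromosome 11, 69686250 to 69695849, minus strand) shares 731 of its 1515 exon bases with Tnfsfm13, a gene on the same strand that joins Tnfsf12 and Tnfsf13, so its counts are less certain.

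Tnfsf9 went the other way. It encodes the CD137 ligand, which on macrophages costimulates T cells. Its level was 89.7 and 80.6 CPM in Acly-E14 siRNA libraries, against 61.6 and 54.4 CPM in controls, which is 1.47-fold higher with no overlap (log2 0.55, SE 0.089, edgeR adjusted p = 0.00743). Tnfsf9 (chromosome 17, 57105325 to 57107757) shares 192 exon bases with Gm11110 on the opposite strand.

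Tnfsf13b and Tnfsf15 were not called. Tnfsf13b, which encodes the B cell survival factor BAFF, had only 53 and 62 counts in Acly-E14 siRNA libraries, against 32 and 31 in controls. The libraries did not overlap, but the log2 fold change of 0.79 (SE 0.25) had an edgeR adjusted p of 0.057, and alternatives gave adjusted p between 0.0118 and 0.28. It passed where library totals replaced the scaling factors and under limma on FPKM. Tnfsf15, which encodes TL1A, the ligand of death receptor 3, was at 209 and 190 CPM in Acly-E14 siRNA libraries, against 229 and 205 CPM in controls. These libraries overlapped, and the log2 fold change of -0.12 (SE 0.079, edgeR adjusted p = 0.281) had a 95% interval from -0.32 to 0.07.

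Both TNF receptor genes were lower. Tnfrsf1b encodes TNFR2, which has no death domain and signals through TRAF2. It was at 2225 and 2050 CPM in Acly-E14 siRNA libraries, against 3631 and 3407 CPM in controls, at 0.607 of the control level (log2 -0.72, SE 0.070, edgeR adjusted p = 0.00197). Tnfrsf1a encodes TNFR1, the death domain receptor found on most cells. It was at 338 and 335 CPM in Acly-E14 siRNA libraries, against 445 and 428 CPM in controls, a smaller fall (log2 -0.37, SE 0.052, edgeR adjusted p = 0.00472). With limma on log2(FPKM + 0.1) the Tnfrsf1a call was lost (adjusted p = 0.0623), within a range over its alternatives that began at 1.77e-12. Neither gene overlapped between groups.

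The counts of Tnf, Tnfrsf1b and Tnfrsf1a did not keep their ratio. Per count of Tnfrsf1a there were 6.57 and 6.11 counts of Tnfrsf1b in Acly-E14 siRNA libraries, against 8.15 and 7.97 in controls. Per count of Tnfrsf1b there were 0.675 and 0.619 counts of Tnf in Acly-E14 siRNA libraries, against 0.951 and 0.856 in controls. Both ratios separated the groups, and the exact two-sided permutation p of each was 0.333, the smallest that 2 libraries against 2 can give. These ratios need no scaling between libraries.

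The largest rise was that of Tnfrsf9, which encodes CD137, the receptor of the Tnfsf9 product and a marker of activated T cells that myeloid cells can also make. It was scarce in every library. It had 70 and 76 counts in Acly-E14 siRNA libraries, against 22 and 28 in controls, and 3.20 and 3.47 CPM against 1.09 and 1.31 CPM. The fold change was 2.77 (log2 1.47, SE 0.25, edgeR adjusted p = 0.0086), and the call was lost without Acly-E14 siRNA library 2 (adjusted p = 0.0604; alternatives began at 0.000517). With a pseudocount of 1 on FPKM the log2 fold change was 0.50, since the gene lay below that pseudocount. Ligand and receptor of this pair were both higher, while Tnf and its receptors were lower. Per count of Tnfrsf9 there were 28.0 and 23.2 counts of Tnfsf9 in Acly-E14 siRNA libraries, against 56.4 and 41.5 in controls (exact two-sided permutation p = 0.333).

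Fas, which encodes a death receptor, was at 18.6 and 22.3 CPM in Acly-E14 siRNA libraries, against 15.8 and 13.3 CPM in controls. The groups did not overlap, and the rise of 1.40-fold passed narrowly (log2 0.49, SE 0.14, edgeR adjusted p = 0.0427). The call was lost without Acly-E14 siRNA library 2 (log2 0.35), control library 1 (log2 0.62) or control library 2 (log2 0.36). With all libraries kept, it was also lost with a replicate block, with no filter on low counts and with limma on log2(FPKM + 0.1). Cd40, which encodes the receptor through which T cells activate macrophages, was at 531 and 525 CPM in Acly-E14 siRNA libraries, against 507 and 476 CPM in controls. It did not pass (log2 0.10, SE 0.056, edgeR adjusted p = 0.201), and the 95% interval of the difference ran from -0.03 to 0.24. Library totals alone brought it past the threshold (adjusted p = 0.0246; alternatives reached 0.582).

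**Figure D2:**
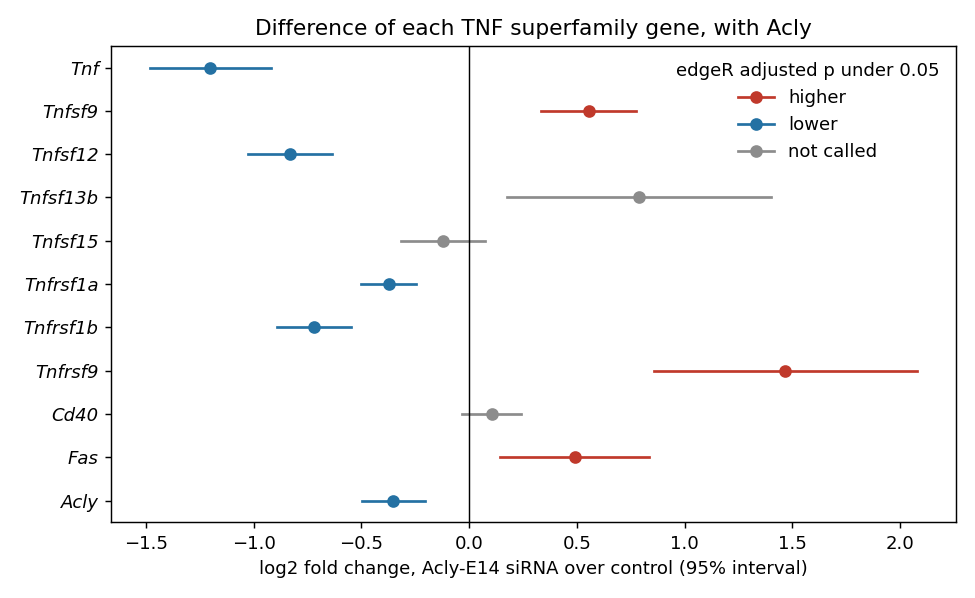
Log2 fold change of each of the 10 genes and of Acly, Acly-E14 siRNA over control, with its 95% interval, which is not adjusted for the number of genes tested. Tnf has the lowest value at -1.20 and Tnfrsf9 the highest at 1.47, with intervals of unequal width.

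Levels between genes were compared per length, as FPKM (fragments scaled to gene length and library total). They were computed from the counts and the gene length that the deposited FPKM values imply. In Acly-E14 siRNA libraries the order was Tnfrsf1b (563 ± 27.3 FPKM, mean ± SD, n = 2), Tnf (469 ± 50.9), Cd40 (98.5 ± 0.0924), Tnfrsf1a (92.3 ± 0.261), Tnfsf9 (71.4 ± 4.75), Tnfsf15 (61.4 ± 3.48), Tnfsf12 (19.7 ± 0.990), Fas (11.7 ± 1.61), Tnfsf13b (2.92 ± 0.346) and Tnfrsf9 (0.805 ± 0.0532). In controls it was Tnf (1011 ± 104 FPKM), Tnfrsf1b (870 ± 25.4), Tnfrsf1a (112 ± 1.45), Cd40 (86.0 ± 2.38), Tnfsf15 (62.7 ± 3.94), Tnfsf9 (45.6 ± 3.29), Tnfsf12 (33.0 ± 0.619), Fas (7.82 ± 0.851), Tnfsf13b (1.58 ± 0.0780) and Tnfrsf9 (0.272 ± 0.0390). Thus 3 pairs of neighbours stood in the other order between groups, and within a group no neighbours overlapped between their libraries. The implied length for Tnf, 3046 bases, exceeds both the 1639 exon bases and the whole 2627-base span of the gene in GENCODE M21. That for Tnfsf13b is 930 bases against 6868 exon bases. With M21 exon lengths Tnf stood above Tnfrsf1b in both groups (872 and 577 FPKM in Acly-E14 siRNA libraries, 1880 and 892 FPKM in controls) and Tnfrsf9 above Tnfsf13b, so these orders depend on the gene model. The edgeR differences between groups do not use these lengths, and 1 length serves all libraries. The limma fits on FPKM plus a pseudocount do depend on length. Which reads are counted for a gene also depends on the gene model, and this was not examined.

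By the distance between centred log2 CPM over the 4 libraries, the 5 genes of at least 10 mean CPM that moved most like Tnf were Cytip, Fabp4, Il10ra, Tor3a and Cebpa (distances 0.092 to 0.138). Cytip encodes an adhesion regulator of leukocytes, Fabp4 a fatty acid-binding protein, Il10ra a chain of the interleukin-10 receptor and Cebpa a myeloid transcription factor. Tor3a, the most abundant of them, was at 442 and 424 CPM in Acly-E14 siRNA libraries, against 1076 and 914 CPM in controls. The group difference of these genes lay between -1.29 and -1.14 on the log2 scale. Its closeness to that of Tnf follows from how they were picked, on the same libraries, and is no separate result.

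The partners of the 10 gene products were looked at next. Cd40lg and Fasl, which encode the ligands of the Cd40 and Fas products, had 0 counts in every library, which allows up to 3 counts, or 0.149 CPM, in a library. Tnfrsf25, the gene of the TL1A receptor, had 3 and 2 counts in Acly-E14 siRNA libraries, against 3 and 3 in controls. Tnfrsf12a, which encodes the TWEAK receptor, was at 60.5 and 62.9 CPM against 51.9 and 53.9 CPM (log2 0.22, edgeR adjusted p = 0.045), a call that was lost without any 1 library (adjusted p from 0.0925 to 0.219; 0.0192 was the lowest under any alternative). Of the BAFF receptor genes, Tnfrsf17 was at 0 and Tnfrsf13c had 3 and 0 counts in Acly-E14 siRNA libraries, against 0 and 0 in controls. Tnfrsf13b, which encodes TACI, was at 8.83 and 8.72 CPM in Acly-E14 siRNA libraries, against 5.91 and 4.96 CPM in controls (log2 0.69, edgeR adjusted p = 0.0188). Leaving out either Acly-E14 siRNA library or control library 2 ended its call (adjusted p 0.0609 to 0.0873; lowest alternative 0.00663). Tnfrsf12a and Tnfrsf13b were chosen after their values were seen.

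Beyond these, most other ligand genes of the family were not called. Of 13 listed, 8 passed the filter on low counts, 1 rose, 1 fell and 6 were not called (median log2 0.01). Tnfsf14, which encodes LIGHT, rose 3.87-fold, at 5.58 and 5.80 CPM in Acly-E14 siRNA libraries, against 1.14 and 1.78 CPM in controls (log2 1.95, SE 0.25, edgeR adjusted p = 0.00392). Tnfsf4, which encodes OX40 ligand, was at 43.7 and 40.8 CPM against 53.1 and 54.2 CPM (log2 -0.34, adjusted p = 0.0155), but this call was lost without Acly-E14 siRNA library 2 (0.0978), control library 1 (0.0598) or control library 2 (0.0614; lowest alternative 0.00144). Lta, a neighbour of Tnf that encodes lymphotoxin alpha, was scarce, at 35 and 31 counts in Acly-E14 siRNA libraries, against 40 and 41 in controls (log2 -0.37, edgeR adjusted p = 0.312). Tnfsf11, which encodes RANK ligand, had a log2 difference of 0.56 with overlapping libraries (adjusted p = 0.325).

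Receptor genes outside the 10 were mostly higher where called. Of all genes tested, 17.3% were called higher and 15.9% lower. Of 24 listed, 16 were tested, 8 were higher, 2 lower and 6 not called (median log2 0.30). The 24 include Edaradd, which encodes an adaptor of the Edar product and was not tested. With 1 library left out, 3 to 5 were higher (3 without either Acly-E14 siRNA library) and 1 lower. The rises with the smallest p came from Tnfrsf26, Tnfrsf23 and Tnfrsf22, which lie side by side on chromosome 7 between 143607659 and 143685872, all on the minus strand. The products of Tnfrsf22 and Tnfrsf23 are mouse decoy receptors that bind TRAIL without a death domain. Tnfrsf26 was at 99.5 and 93.0 CPM in Acly-E14 siRNA libraries, against 33.9 and 36.3 CPM in controls (2.74-fold, log2 1.45, SE 0.072, edgeR adjusted p = 0.000584). Tnfrsf23 was 2.15-fold and Tnfrsf22 2.79-fold higher (adjusted p = 0.00326 and 0.00442). All 3 kept their groups apart; as related genes in tandem they may share reads, and Tnfrsf23 and Tnfrsf26 share 164 and 107 exon bases with E230032D23Rik. Tnfrsf21, which encodes death receptor 6, fell, at 12.2 and 12.2 CPM in Acly-E14 siRNA libraries, against 21.8 and 20.6 CPM in controls (log2 -0.79, adjusted p = 0.00317). The part of the fibroblast and stroma markers, 10 of 12 of them also higher, in these rises was not tested.

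In the edgeR fit of all libraries, genes that act below the receptors were called lower more often than higher. Of all genes tested, 33.2% were called, 15.9% lower and 17.3% higher. The excess of lower calls did not hold in every alternative. Of 20 adaptors and ubiquitin enzymes tested, 7 were lower, 1 higher and 12 not called (median log2 -0.21). The lower count was 1 without Acly-E14 siRNA library 2 and 3 without control library 1, and the higher count was 2 without control library 2. The lower count was 4 with library totals alone; under limma with log2(FPKM + 0.1), 1 was lower and 1 higher. Tank, a TRAF-binding adaptor gene, fell to 166 and 160 CPM in Acly-E14 siRNA libraries, against 233 and 222 CPM in controls (log2 -0.48, edgeR adjusted p = 0.00293). Tnip2, whose product binds and aids A20, was the only rise, 1.66-fold (adjusted p = 0.00296). Traf5 (log2 -0.47) and the deubiquitinase gene Cyld (log2 -0.36) were lower, but both calls were lost without Acly-E14 siRNA library 2 (adjusted p = 0.0588 and 0.0618) or control library 1 (0.0534 and 0.0592), within ranges over alternatives that reach 0.0831 for Cyld. Tnfaip3, which encodes the NF-kB inhibitor A20 and was chosen after its values were seen, was at 501 and 440 CPM in Acly-E14 siRNA libraries, against 866 and 649 CPM in controls (log2 -0.69, adjusted p = 0.016), a call lost without Acly-E14 siRNA library 2 (0.0722; alternatives 0.00178 to 0.0803).

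Of 13 kinases and kinase partners, 5 were lower, 1 higher and 7 not called (median log2 -0.10). The lower count was 3 without Acly-E14 siRNA library 1 or control library 2, 2 without Acly-E14 siRNA library 2 and 1 without control library 1. It was 3 with library totals alone; under limma with log2(FPKM + 0.1), 1 was lower and 1 higher. Tab2, which links ubiquitin chains to TAK1, fell to 146 and 129 CPM in Acly-E14 siRNA libraries, against 223 and 225 CPM in controls (log2 -0.70, edgeR adjusted p = 0.00215). Tbk1 (log2 -0.41) lost its call without control library 1 (adjusted p = 0.0506). Mapkapk2, which encodes MK2, a kinase that acts on AU-rich element-binding proteins, had a log2 fold change of -0.34 (adjusted p = 0.0117) and lost its call without Acly-E14 siRNA library 2 (0.0623) or control library 1 (0.0749). Map3k14, which encodes the kinase NIK of the alternative NF-kB route, rose 1.53-fold (adjusted p = 0.0157), which did not hold without Acly-E14 siRNA library 1 (0.0553) or 2 (0.0919) or control library 1 (0.0678).

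Effectors of death receptors were mostly called lower, as were 15.9% of all genes tested. Of 7 tested, 5 were lower, 1 higher and 1 not called, with a median log2 fold change of -0.47. Without 1 library 4 or 5 were lower, and the rise of Ripk3 (log2 0.30), named after its values were seen, was not called in any of these fits. The initiator caspase gene Casp8 was at 165 and 152 CPM in Acly-E14 siRNA libraries, against 219.6 and 219.9 CPM in controls (log2 -0.47, SE 0.062, edgeR adjusted p = 0.00396). Bid, whose product carries the death signal to mitochondria, also fell (log2 -0.58, adjusted p = 0.00584). Cflar, which encodes the caspase-8 inhibitor c-FLIP, was at 1308 and 1218 CPM in Acly-E14 siRNA libraries, against 1952 and 1672 CPM in controls (log2 -0.52, adjusted p = 0.00877). Members that promote and that restrain cell death were thus both among the falls. Bid shares 628 exon bases with Bcl2l13 on the opposite strand.

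**Figure D3:**
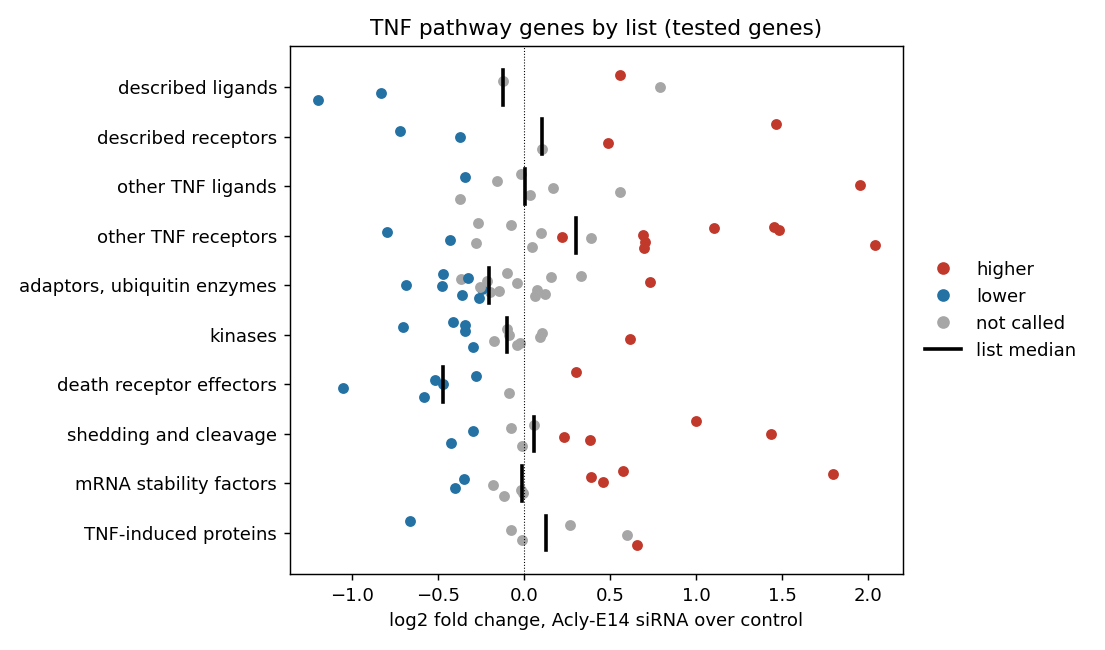
Log2 fold change, Acly-E14 siRNA over control, of each tested gene in the TNF pathway lists and, at the top, of the 10 genes described, coloured by call, with the list median as a black bar. Death receptor effectors have the lowest median, -0.47, and other TNF receptors the highest, 0.30.

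The release of TNF from the membrane and the stability of its mRNA were examined through further lists. Of 9 genes of shedding and cleavage, 4 were higher, 2 lower and 3 not called (median log2 0.05). Adam17, the protease that releases TNF, was at 252 and 232 CPM in Acly-E14 siRNA libraries, against 337 and 312 CPM in controls (log2 -0.42, edgeR adjusted p = 0.00755), which did not hold without control library 1 (0.0532). Rhbdf2, which encodes its partner iRhom2, had a log2 fold change of -0.29 (adjusted p = 0.0168), lost without Acly-E14 siRNA library 2 (0.0789) or either control (0.0947 and 0.0651). The related Rhbdf1 rose 2.70-fold, at 12.4 and 13.4 CPM against 3.68 and 5.85 CPM (adjusted p = 0.00645), and Frmd8, whose product stabilises iRhoms, also rose (log2 0.38, 0.00707). Adam17 shares 311 exon bases with Iah1 and Frmd8 388 with Frmd8os, each on the opposite strand. With 1 library left out 2 or 3 were higher (2 without Acly-E14 siRNA library 2 or control library 1), and the lower count was 1 without Acly-E14 siRNA library 2 or control library 2 and 0 without control library 1.

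Of 10 genes for factors that bind or cut cytokine mRNAs, 4 were higher, 2 lower and 4 not called (median log2 -0.01), and 3 were higher with any 1 library left out. The lower count was 1 without control library 1 and 0 with limma on log2(FPKM + 0.1). The rises included all 3 listed members of the Zfp36 family, whose products bind AU-rich elements and promote decay. Zfp36l1 was at 70.3 and 83.7 CPM in Acly-E14 siRNA libraries, against 18.4 and 26.0 CPM in controls (3.47-fold, log2 1.79, SE 0.17, edgeR adjusted p = 0.00196). Zfp36l2 was at 209 and 214 CPM against 138 and 146 CPM (1.49-fold, adjusted p = 0.00207). Zfp36, which encodes tristetraprolin, was at 403 and 396 CPM against 292 and 316 CPM (1.31-fold, adjusted p = 0.00624). Rc3h1, which encodes the decay factor roquin-1, fell (log2 -0.40, edgeR adjusted p = 0.00626). The other fall was that of Zc3h12a (log2 -0.35, edgeR adjusted p = 0.0087), named after its values were seen. Zfp36l1 shares 1672 exon bases with Gm26669 on the opposite strand. Stability of Tnf mRNA was not measured, and the part of the fibroblast and stroma signal in the Zfp36l1 rise was not tested.

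Among 6 tested genes named as TNF-induced proteins or as relatives of one, 1 rose, 1 fell and 4 were not called (median log2 0.13). With library totals alone 2 rose, 3 under limma with log2(FPKM + 1) and 2 with log2(FPKM + 0.1). These counts and the median leave out Tnfaip3, which was listed with the adaptors and ubiquitin enzymes above and was lower (log2 -0.69). Tnfaip1 was at 59.7 and 59.6 CPM in Acly-E14 siRNA libraries, against 38.5 and 37.3 CPM in controls (1.57-fold, edgeR adjusted p = 0.00211). Tnfaip8l3 had a log2 fold change of -0.66 (adjusted p = 0.0265), a call lost without any 1 library (0.0656 to 0.127). Tnfaip8l2 and Tnfaip6 were not called (log2 0.27 and 0.60, adjusted p = 0.0878 and 0.196).

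The summed level of the 5 ligands was 1833 and 1573 CPM in Acly-E14 siRNA libraries, against 3800 and 3231 CPM in controls. That of the 5 receptors was 3116 and 2937 CPM against 4599 and 4326 CPM. Most of the receptor sum was Tnfrsf1b, at 2225 and 2050 CPM against 3631 and 3407 CPM. Of the 5 receptors, 2 were higher, 2 lower and 1 not called (median log2 0.10). Summed macrophage markers overlapped, at 8429 and 8977 CPM in Acly-E14 siRNA libraries, against 9144 and 8418 CPM in controls. Lyz2 was the largest part of that sum, at 4399 and 4804 CPM against 4932 and 4550 CPM (not called). The sum does not show the moves of single markers, 3 called higher and 4 lower. Cd14 rose (log2 1.03) and Cd68 fell (log2 -0.68).

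**Figure D4:**
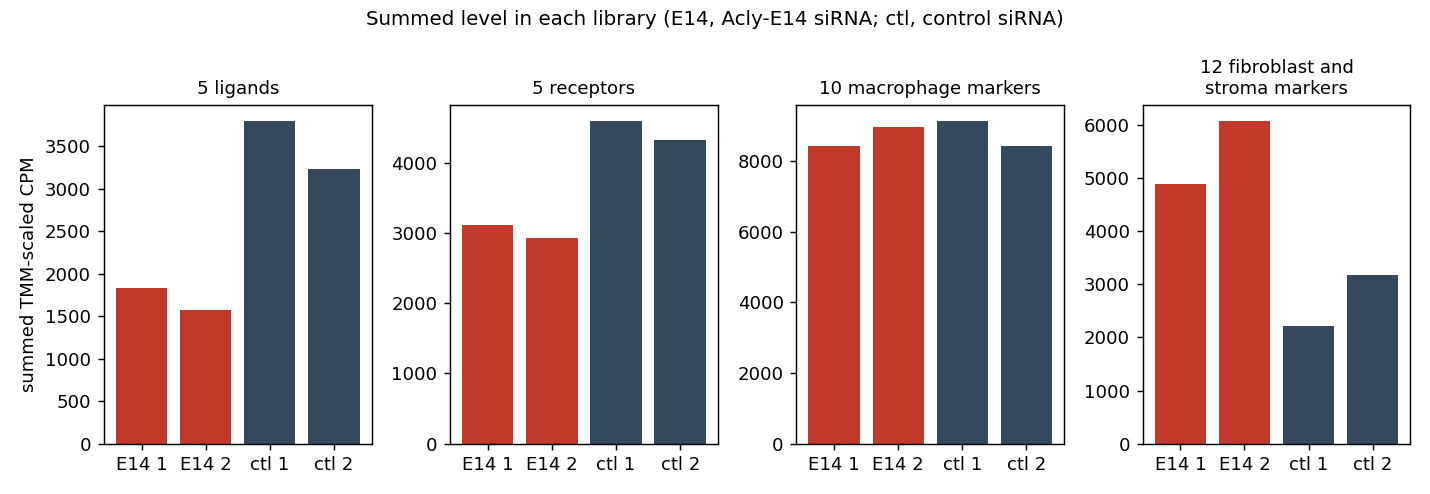
Summed CPM in each library (2 Acly-E14 siRNA, left, and 2 control siRNA, right) of the 5 ligands, the 5 receptors, 10 macrophage markers and 12 fibroblast and stroma markers, each on its own axis from 0. The ligand and receptor sums are lower in both Acly-E14 siRNA libraries, the fibroblast and stroma sums are higher, and the macrophage sums overlap. Tnf, Tnfrsf1b and Lyz2 are the largest parts of the ligand, receptor and macrophage sums.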

How the data were processed

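The authors deposited whole-number counts per gene, unnormalised per the file headers, and FPKM values. All 49103 FPKM values above 0 in the 3 columns used equalled those recomputed from count, library total and a whole-number length per gene derived from them (relative tolerance 0.001); 1 value column without a replicate number was not used. Per the submitters' processing notes, HISAT2, StringTie 1.3.0, edgeR and mm10 were used; which step each served, the counter and its strand setting were not stated. Per the labels' protocols, both a strand-specific total RNA kit and mRNA capture beads were used.

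Symbols matched 34267 IDs. Genes were kept by filterByExpr (minimum count 10), scaled with TMM factors (0.958 to 1.04) and tested with edgeR 4.0.16 (quasi-likelihood, no covariates, Benjamini-Hochberg over all genes) in R 4.3.3. Standard errors (SE) are those implied by the F statistic; 95% intervals use its degrees of freedom. The code was checked on simulated counts. Alternatives were a replicate block, leaving out each library (a lone library is then assumed to vary like the others), RLE factors, library totals alone, DESeq2 1.42.0, no filter on low counts, limma 3.58.1 on log2 FPKM plus 1 or 0.1, and an adjusted p under 0.1. A floor of 3 counts and counting intervals cover counting error only. The 10 genes, the lists and their markers were chosen with earlier results of these data known. Beside the 10 genes and Acly, the 4 genes of smallest p per list and the 5 nearest to Tnf are named. Of these, 1 gene is not reported here.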

Additional observations from a re-analysis of the deposited data

How the results depend on the processing

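The direction of each of the 10 genes held in every alternative fit. Across 70 fits of single genes that kept all libraries, 62 stayed on their side of the threshold, 4 lost a call and 4 gained one; of 40 that left out a library, 36 stayed and 4 lost a call. The count of the 10 genes called higher was 3, and 5 with library totals alone, which added Tnfsf13b and Cd40; it was 1 to 3 with a library left out. With the replicate block it was 2, since Fas then had an adjusted p of 0.0525, and 4 were lower. Same-numbered libraries had deviations with a correlation of 0.144 over 2 pairs, so the numbers do not establish pairing. Over all genes, with a library left out, 1045 to 1815 were higher, against 2264, and 982 to 1400 lower, against 2090. Lower calls numbered 1313 with limma on log2(FPKM + 1) and 896 with log2(FPKM + 0.1). Rises made up 52.0% of all calls, 65.8% where library totals served as the scaling, and 66.0% and 69.9% under limma with a pseudocount of 1 and 0.1. Depth limits Tnfrsf9 and Tnfsf13b, with under 100 counts per library.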
